A study of Mus musculus with 12 samples.

Results

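RNA was sequenced from RAW 264.7 cells, a mouse macrophage line of BALB/c strain, and the comparison described here sets Parp14 -/- cells given LPS against wild-type cells given LPS together with a Jak inhibitor. It rests on 4 of the 12 libraries of the series, 2 of knockout cells with LPS (KO_LPS) and 2 of wild-type cells with LPS and the inhibitor (WT_LPS_JAKi), chosen by their labels alone. The same lines without LPS were untreated Parp14 -/- cells (KO_UT) and wild-type cells with the inhibitor alone (WT_JAKi), and wild-type cells with LPS alone (WT_LPS) or untreated (WT_UT) completed the 6 groups of 2 libraries. Treatments lasted 2 h. Which inhibitor was used, its dose and how many knockout clones there were is not stated in the labels, and in the libraries analysed the inhibitor was given to wild-type cells only. The labels do not say whether replicates were separate cultures, so the p-values cover the spread between libraries only, which may be technical.

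LPS, a bacterial cell wall component, is sensed by the receptor TLR4, which turns on NF-kB and MAP kinase target genes and, through the factor IRF3, the gene of interferon beta. Secreted interferon beta binds its receptor, whose Jak kinases phosphorylate STAT factors; with IRF9 these form a complex that binds interferon-stimulated response elements and turns on antiviral genes. Blocking Jak kinases therefore acts after interferon has been made, while PARP14, an ADP-ribosyltransferase with macrodomains, is itself encoded by an interferon-stimulated gene. A direct comparison of both states asks in which genes the knockout and the blocked Jak step left LPS-treated cells at different levels.

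Parp14, on chromosome 16 at 35832874 to 35871544 of GRCm38, checked the labels. It stood at 315 and 419 CPM (reads scaled to the same total of reads in genes in every library) in WT_LPS, 110 and 138 CPM in WT_LPS_JAKi, 34.9 and 40.5 CPM in KO_LPS and 10.0 and 12 CPM in KO_UT, so each knockout library was below each wild-type library. Which part of the gene was altered is not stated in the labels. Its neighbours Dtx3l and Parp9, whose products form an E3 ligase complex, lay at 35.4 and 43.7 CPM and at 48.7 and 53.0 CPM in KO_LPS. Dtx3l was higher than in WT_LPS_JAKi by 0.49 on the log2(CPM + 1) scale (SE 0.07, adjusted p = 5.6e-05), and Parp9 differed by 0.05 (SE 0.05, adjusted p = 0.49). These neighbours overlap on opposite strands, and without a known strand setting their shared reads cannot be told apart.

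The libraries held 35940669 to 45662896 reads in genes. All 9 defining macrophage markers were expressed. Between KO_LPS and WT_LPS_JAKi, 2 of them were higher (Cd14 and Mrc1) and 4 lower (Adgre1, Cd68, Lyz2 and Spi1), the largest difference being that of Adgre1, which encodes the surface protein F4/80 (76.4 and 64.7 against 198 and 159 CPM). The higher markers were the less stable: neither was called without KO_LPS replicate 1, without KO_LPS replicate 2, without the block or with no filter, Cd14 was not called without WT_LPS_JAKi replicate 2 (adjusted p = 0.214) or with the deposited scaling, and Mrc1 not without WT_LPS_JAKi replicate 1 (0.249). Without the block 2 markers were lower. Summed levels of the neutrophil markers ran from 0.225 to 0.799 CPM over the 12 libraries, of the mast cell and basophil markers from 0 to 0.0523 CPM, of the lymphocyte markers from 0.0234 to 0.147 CPM and of the stromal, epithelial and endothelial markers from 0.0515 to 0.523 CPM. No gene of these 4 lists reached the filter of 1 CPM in 2 libraries, and Cd3e, S100a9, Fcer1a and Epcam had 0 reads in every library.

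Of 10899 genes tested, 1612 (14.8%) were higher and 1993 (18.3%) lower in KO_LPS than in WT_LPS_JAKi, at an adjusted p under 0.05 in the limma fit, which takes the replicate number as a block. These 3605 calls make up 33.1% of all tested genes. That share is the background for the marker counts above and for member counts of this comparison below, in the main settings. The median difference of all genes was -0.03 (log2). Differences of at least 2-fold were found for 193 of them (1.77%), 112 higher and 81 lower. With the CPM scaled as deposited, over all counted alignments, 1009 genes were higher and 4106 lower and the median was -0.12. Without the replicate block, 708 genes were higher and 743 lower. In the side comparisons with WT_LPS, the knockout had 3438 calls (31.5%), and the inhibitor 446 (4.09%), 183 higher (1.68%) and 263 lower (2.41%). Of these, 60 were at least 2-fold apart (0.551% of all genes), all of them lower with the inhibitor. KO_UT against WT_JAKi had 25.4% of all genes called (12.2% higher, 13.2% lower). The difference of LPS responses had 5.41% called (3.2% higher, 2.21% lower). Member counts from each comparison or setting have the share of that comparison or setting as their background.

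Most of the large differences were also there without LPS. The comparison of KO_UT with WT_JAKi uses no library of the LPS comparison and called 2769 genes (25.4%). Among the 112 genes at least 2-fold higher with LPS, 91 (81.2%) were also called higher without it, and of the 81 at least 2-fold lower, 70 (86.4%) were called lower. The 91 include genes that passed the filter only through knockout libraries, such as Tbx3 and Nid2. Over all calls, 812 of the 1612 higher genes (50.4%) and 972 of the 1993 lower genes (48.8%) were called the same way without LPS. These make up 60.9% of the genes higher and 67.7% of those lower without LPS. Only 61 of the higher and 9 of the lower genes were called in the opposite direction. Across the 10899 genes, which share libraries and are not independent, the differences with and without LPS had a Pearson r of 0.754 and a Spearman rho of 0.596.

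**Figure D1:**
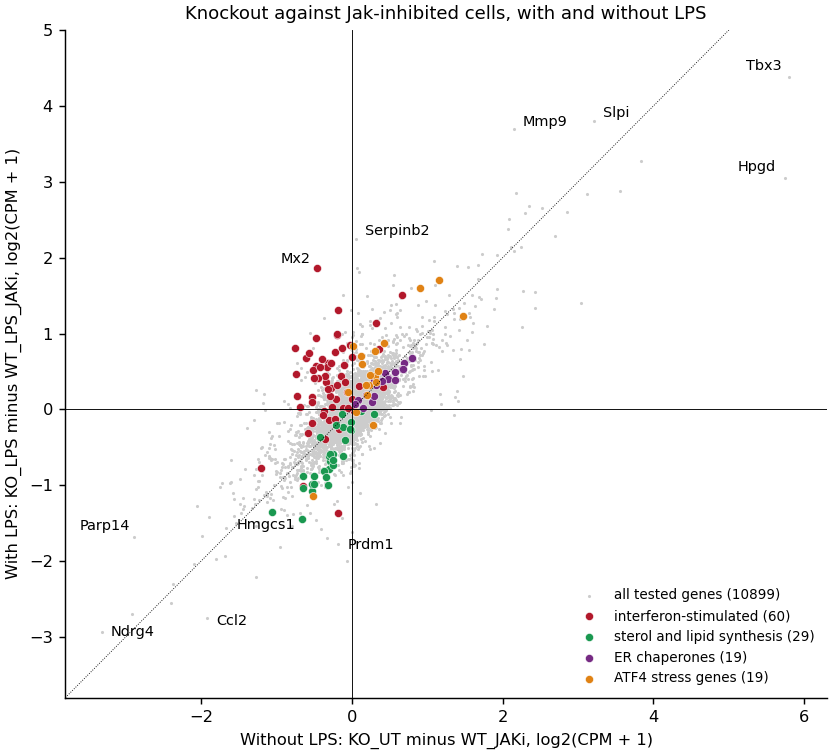
Difference between knockout and Jak-inhibited cells with LPS (vertical axis) against the same difference without LPS (horizontal axis), on the log2(CPM + 1) scale, 1 point per gene, with 4 gene lists coloured and equality dotted. Most interferon-stimulated genes lie above the dotted line, most sterol genes below both zero lines, and Tbx3, Hpgd and Ndrg4 lie far from zero on both axes.

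The interferon-stimulated genes, whose products block virus entry, translation and RNA replication, were mostly less reduced in the knockout than under the inhibitor. Of 60 tested genes of this list, 38 were higher and 6 lower in KO_LPS than in WT_LPS_JAKi, with a median difference of 0.35 against -0.03 for all genes. Both states lay below WT_LPS for most of them. The knockout had 51 of 60 lower than WT_LPS and 2 higher (median -0.79, where 16.7% of all genes were lower and 14.9% higher), and the inhibitor had 50 of 60 lower (median -1.02). Without the replicate block, 21 were higher and 2 lower in KO_LPS than in WT_LPS_JAKi.

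The order was different without LPS. KO_UT had 32 of the 60 genes lower and 5 higher than WT_JAKi, with a median of -0.28, where 13.2% of all genes were lower and 12.2% higher. In the test of the change itself, the LPS response of the knockout minus the LPS response with the inhibitor, 40 of the 60 were higher and 1 lower (median 0.66), where 3.2% of all genes were higher and 2.21% lower. Summed over the list, levels ran from 5362 to 5806 CPM in KO_LPS, 4724 to 4967 CPM in WT_LPS_JAKi and 7415 to 7979 CPM in WT_LPS.

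Promoters of 4 genes of these lists are shown because they share the response element and yet went 3 different ways. Each is the 150 bases before the transcription start, 5′ to 3′ on the gene's strand, from RefSeq on GRCm38.p6, and capitals mark matches to GAAA, any 2 bases and GAAA, on either strand. This is a short form of the interferon-stimulated response element, and adjoining matches can overlap.
Rsad2, higher in KO_LPS, chr12:26456453-26456602, minus strand: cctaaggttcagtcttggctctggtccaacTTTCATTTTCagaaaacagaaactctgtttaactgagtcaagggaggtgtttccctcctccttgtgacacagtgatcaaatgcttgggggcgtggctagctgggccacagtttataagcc
Irgm2, higher in KO_LPS, chr11:58214827-58214976, plus strand: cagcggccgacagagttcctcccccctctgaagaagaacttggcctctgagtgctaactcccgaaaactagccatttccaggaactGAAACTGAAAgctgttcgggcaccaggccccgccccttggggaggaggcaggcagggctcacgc
Ifit1, not called, chr19:34640739-34640888, plus strand: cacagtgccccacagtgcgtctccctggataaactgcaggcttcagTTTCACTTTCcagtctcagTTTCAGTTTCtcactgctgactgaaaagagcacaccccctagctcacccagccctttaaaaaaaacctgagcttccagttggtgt
Isg15, lower in KO_LPS, chr4:156200819-156200968, minus strand: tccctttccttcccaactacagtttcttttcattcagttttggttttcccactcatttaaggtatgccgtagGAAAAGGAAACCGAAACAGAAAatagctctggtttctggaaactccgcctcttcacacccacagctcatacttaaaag

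Rsad2 and Irgm2 had 1 match each in this window, Ifit1 had 2 and Isg15 had 3. Over all 27025 genes with a promoter window from 250 bases before to 50 after the start, 3.49% held a match. Only 45 of the 60 tested interferon-stimulated genes had a window, under the 80% needed, so no share is given for the list. A match is a description of the letters and not a measured binding site.

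Mx2, of the family of dynamin-like antiviral GTPases, differed most. GENCODE M21 lists it as a polymorphic pseudogene, and whether these cells make a working protein from it was not measured. It stood at 67.6 and 69.0 CPM in WT_LPS, 4.81 and 6.41 CPM in WT_LPS_JAKi and 20.8 and 25.1 CPM in KO_LPS. The inhibitor left 8.22% of the WT_LPS mean and the knockout 33.6%, and the groups did not overlap (difference 1.86, SE 0.10, adjusted p = 7.1e-09). Without LPS the sign was opposite, with 3.13 and 4.42 CPM in KO_UT below 4.36 and 6.91 CPM in WT_JAKi on average (difference -0.46, adjusted p = 0.0035).

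Oas2, a double-stranded RNA sensor, stood at 15.9 and 25.1 CPM in WT_LPS_JAKi and at 43.2 and 60.4 CPM in KO_LPS (difference 1.31, SE 0.06, adjusted p = 9.7e-10), against 65.1 and 84.6 CPM in WT_LPS. Rsad2, which encodes viperin, was low in both states. It had 48.6 and 54.8 CPM in WT_LPS, 4.81 and 5.27 CPM in WT_LPS_JAKi and 7.01 and 10.6 CPM in KO_LPS, so that the inhibitor left 9.76% of the WT_LPS mean and the knockout 17%. The knockout level was higher by 0.68 (SE 0.10, adjusted p = 0.00016, and 0.0784 without the block). Ifit2, Cmpk2, Xaf1, Ddx58, Eif2ak2 and Ifit3 were higher in KO_LPS by 0.98, 0.94, 1.00, 0.74, 0.62 and 0.61, and each lay below WT_LPS in both states.

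Oasl1 and Slfn4 reached or passed the WT_LPS level in the knockout and not with the inhibitor. Oasl1, an RNA-binding relative of the Oas enzymes, had 508 and 584 CPM in KO_LPS and 491 and 571 CPM in WT_LPS (difference 0.04, adjusted p = 0.75), while WT_LPS_JAKi had 299 and 325 CPM (difference from WT_LPS -0.76, adjusted p = 2.5e-05). Slfn4, a Schlafen gene of myeloid cells, was above WT_LPS in the knockout (309 and 286 against 207 and 186 CPM) and below it with the inhibitor (102 and 106 CPM). The knockout line also carried more Slfn4 without LPS, 108 and 115 CPM against 63.4 and 76.6 CPM in WT_JAKi. Pml, the scaffold of nuclear bodies, lay below WT_LPS in both states at each replicate number, as Oas2 did. It had 7.58 and 9.56 CPM under the inhibitor, 17.1 and 23.3 CPM in the knockout and 22.6 and 31.3 CPM in WT_LPS.

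Ifit1, which binds foreign RNA ends, was at nearly the same level in both states: 39.5 and 39.0 CPM in WT_LPS_JAKi and 37.1 and 43.7 CPM in KO_LPS, against 143 and 155 CPM in WT_LPS. The difference was 0.04 (SE 0.08, adjusted p = 0.76), and the inhibited cells stood at 26.4% and the knockout at 27.1% of the WT_LPS mean. A p of this size does not show that they are equal.

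Among the 6 members that were lower in the knockout were Cxcl11, Isg15, Cxcl10, Herc6 and Ifih1. Isg15, a ubiquitin-like modifier, had 172 and 208 CPM in WT_LPS, 167 and 171 CPM in WT_LPS_JAKi and 78.7 and 89.3 CPM in KO_LPS. The inhibitor did not give a call (difference from WT_LPS -0.16, adjusted p = 0.49), and the knockout was lower than the inhibited cells by 1.00 (SE 0.12, adjusted p = 1.8e-05). Ifih1, the RNA sensor MDA5, showed the same order with smaller steps, 396 and 422, 314 and 332, and 279 and 288 CPM (difference -0.19, adjusted p = 0.0058). Without the replicate block Cxcl10, Herc6 and Ifih1 were no longer called, at adjusted p of 0.414, 0.126 and 0.123; nor was Cxcl10 without KO_LPS replicate 2 (0.217) or WT_LPS_JAKi replicate 1 (0.212), Herc6 without KO_LPS replicate 1 (0.0679) or Ifih1 without KO_LPS replicate 2 (0.068). Members of the Ifit, Oas, Slfn, Gbp and Irgm families have close copies in the genome, and how reads shared between copies were counted is not known for each of them.

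**Figure D2:**
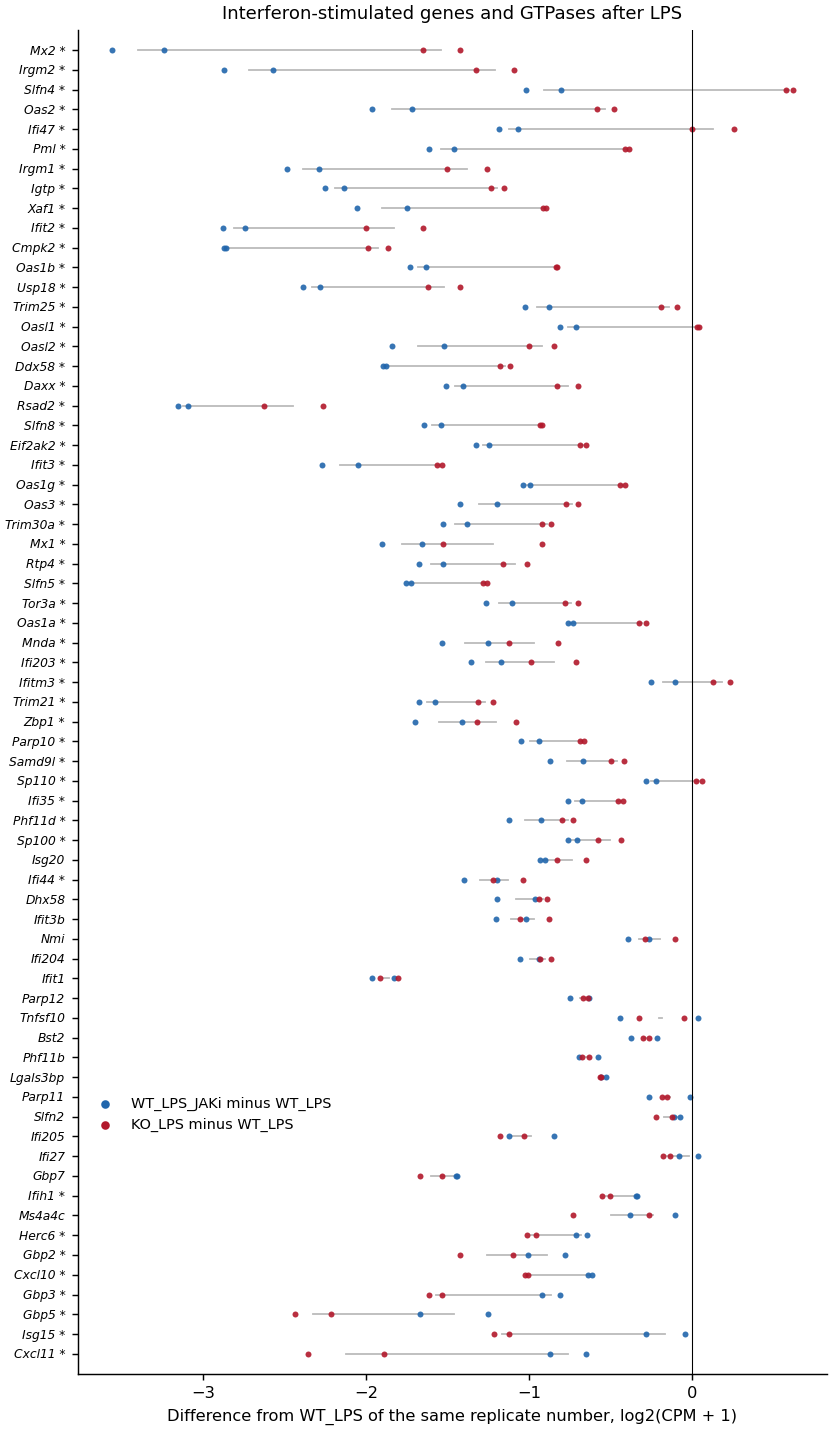
Difference from the WT_LPS library of the same replicate number, on the log2(CPM + 1) scale, for most tested genes of the interferon-stimulated and interferon-inducible GTPase lists (blue, WT_LPS_JAKi; red, KO_LPS; 1 point per library, grey line between the means), ordered by KO_LPS minus WT_LPS_JAKi, with * at an adjusted p under 0.05. For Mx2 and most genes in the upper rows the red points lie to the right of the blue ones, and for Cxcl11, Isg15 and Gbp5 at the bottom to the left.

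The interferon-inducible GTPases, which attack the vacuoles of intracellular pathogens, split by family. Of 8 tested, the 4 immunity-related GTPases were higher in KO_LPS than in WT_LPS_JAKi: Irgm2 by 1.51, Ifi47 by 1.26, Irgm1 by 1.00 and Igtp by 1.00. Of the guanylate-binding proteins, Gbp5 was lower by 0.87, Gbp3 by 0.71 and Gbp2 by 0.37, and Gbp7 was not called. Irgm2 had 5.28 and 7.86 CPM in WT_LPS_JAKi and 17.4 and 23.6 CPM in KO_LPS, with no overlap, and 45.0 and 51.6 CPM in WT_LPS. Gbp5, which promotes inflammasome assembly, went the other way, with 3.45 and 2.97 CPM under the inhibitor and 1.28 and 1.33 CPM in the knockout. WT_LPS had 9.59 and 11.6 CPM of Gbp5, and the inhibitor lowered all 8 of these genes against WT_LPS and the knockout 7 of them. The exception, Ifi47, had 6.70 and 7.07 CPM in WT_LPS and 8.24 and 7.09 CPM in KO_LPS (difference 0.13, adjusted p = 0.445). Gbp2 was not called between both states without KO_LPS replicate 2 (adjusted p = 0.194), without WT_LPS_JAKi replicate 1 (0.135), without the block (0.0531) or by DESeq2 (0.147).

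Among 8 interferon regulatory factors, Irf9, Irf7 and Irf8 were higher in KO_LPS and Irf3 was lower, the last by 0.19 and not called without KO_LPS replicate 1, KO_LPS replicate 2 or WT_LPS_JAKi replicate 1. Irf9, the DNA-binding subunit of the STAT complex, had 35.4 and 44.0 CPM in WT_LPS_JAKi and 64.6 and 75.8 CPM in KO_LPS (difference 0.81, SE 0.07, adjusted p = 4.3e-07). Irf7, which amplifies interferon production, had 18.0 and 27.8 CPM against 29.4 and 40.8 CPM, so the groups did not overlap, with a difference of 0.61 (adjusted p = 1.1e-05, and 0.189 without the block). Irf1 was lower than in WT_LPS in both states, at 29.9 and 23 CPM against 25.7 and 26.3 CPM, compared with 95.4 and 82.9 CPM in WT_LPS (difference between the states -0.01, adjusted p = 0.93).

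Of 10 Jak kinases and STAT factors, 2 were higher in KO_LPS, Stat2 among them, and Jak3 was lower. Stat2, at 10.6 and 14.2 against 14.9 and 18.8 CPM, had a difference of 0.42 (adjusted p = 0.00024, and 0.146 without the block). Jak3, which pairs with the common gamma chain, was lower by 0.49 with LPS and by 0.41 without it.

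The cytokines that signal through Jak kinases moved in both directions. Of 13 tested, 6 were higher (Csf3, Osm, Il10, Lif, Il6 and Il23a) and 5 lower (Ifnb1, Il15, Ebi3, Csf2 and Il27) in KO_LPS than in WT_LPS_JAKi. Il23a passed the filter of 1 CPM in 2 libraries only through the KO_LPS libraries, so its higher call was partly set by the filter. It was not tested with either KO_LPS library left out. Against WT_LPS, the knockout had 8 calls among the 13 by limma, where 31.5% of all genes were called. The inhibitor had 0, where 4.09% of all genes were called, so 0 of 13 is near that share. At an unadjusted p under 0.05 the inhibitor had 3, all lower, edgeR called 2 of the list and DESeq2 1. The count of lower genes between both states was 3 without KO_LPS replicate 1 or WT_LPS_JAKi replicate 2 and 2 without WT_LPS_JAKi replicate 1, where Ebi3 had an adjusted p of 0.064 and Csf2 of 0.115; DESeq2 did not call Csf2 either (adjusted p = 0.117). Il15 was not called without KO_LPS replicate 1 (0.235) or WT_LPS_JAKi replicate 2 (0.249), and Il27 was not called with any 1 of the 4 libraries left out (0.0769 to 0.213). Among the higher genes, Il23a was not called without WT_LPS_JAKi replicate 1 (0.0739) or replicate 2 (0.194), without the block (0.0835), with a pseudocount of 0.25 (0.073), with only the groups compared (0.0514) or by DESeq2 (0.317).

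Ifnb1, on chromosome 4 at 88522025 to 88522774 (GRCm38), encodes interferon beta, the ligand upstream of the Jak step. It stood at 31.7 and 27.7 CPM in WT_LPS, 24.2 and 28.4 CPM in WT_LPS_JAKi and 10.7 and 14.4 CPM in KO_LPS. The knockout was thus at 42.3% of the WT_LPS mean and the inhibited cells at 88.6%, and the knockout libraries lay below all others with LPS. The difference between the states was -1.02 (SE 0.12, adjusted p = 1.6e-05), and that from WT_LPS was -1.19 for the knockout (adjusted p = 3.3e-06) and -0.17 for the inhibitor (adjusted p = 0.46). Without LPS every library had under 0.1 CPM.

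Csf3, the neutrophil growth factor G-CSF, went up instead. It had 116 and 131 CPM in WT_LPS, 135 and 119 CPM in WT_LPS_JAKi and 462 and 413 CPM in KO_LPS, a ratio of 3.44 between the means of both states (difference 1.78, SE 0.08, adjusted p = 1.8e-09). Lif and Osm, cytokines of the interleukin-6 family that lie next to each other on chromosome 11, did the same. Osm had 11.2 and 10.1 CPM under the inhibitor and 30.6 and 25.2 CPM in the knockout (difference 1.30, adjusted p = 2.1e-07), and Lif 837 and 788 against 1592 and 1518 CPM (difference 0.94, adjusted p = 1.2e-07). The Osm and Lif levels with the inhibitor were 99.2% and 101% of those in WT_LPS. Il10, the anti-inflammatory cytokine, was low throughout, with 0.574 and 0.827 CPM against 2.17 and 2.39 CPM (difference 0.95, adjusted p = 1.5e-05).

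Il6 was less clear. It had 29.3 and 16.7 CPM in WT_LPS_JAKi, 45.2 and 34.0 CPM in KO_LPS and 34.1 and 24.6 CPM in WT_LPS, and replicate 1 was the higher library in each group. The difference between the states was 0.80 (SE 0.16, adjusted p = 0.0013) and 0.0554 was its adjusted p without the block, while neither state passed the threshold against WT_LPS.

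**Figure D3:**
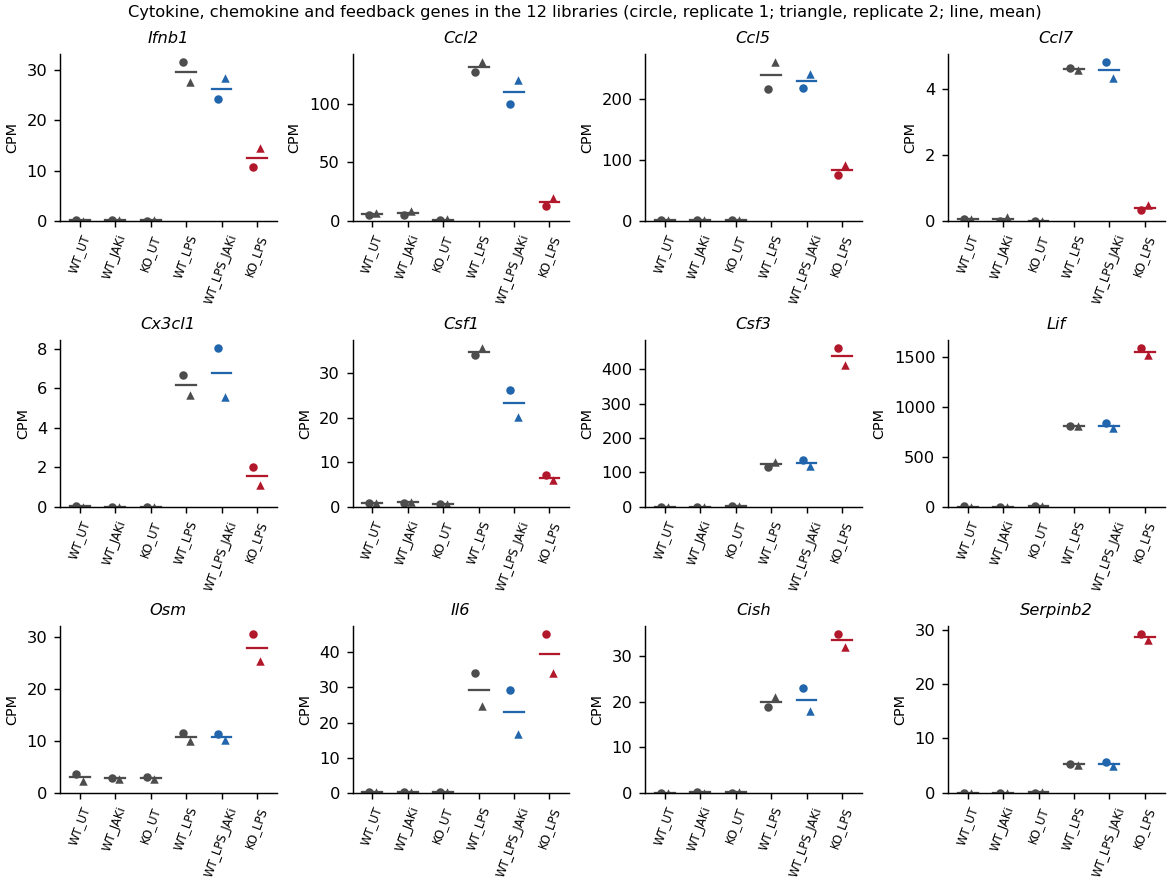
CPM of 12 cytokine, chemokine and feedback genes in the 12 libraries (circle, replicate 1; triangle, replicate 2; line, mean of 2), with KO_LPS in red, WT_LPS_JAKi in blue and the other groups grey; each panel has its own linear axis from 0. For Ifnb1, Ccl2, Ccl5, Ccl7, Cx3cl1 and Csf1 the red points are the lowest with LPS, for Csf3, Lif, Osm, Cish and Serpinb2 the highest, and for Il6 the red and grey points overlap.

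Receptor chains that signal through Jak kinases were lower more often than higher in KO_LPS, 7 against 2 of 19 tested. Without LPS 6 were lower and 1 higher in KO_UT than in WT_JAKi. In the difference of LPS responses 1 was lower, where 2.21% of all genes were lower. With LPS, 4 were lower and 0 higher without the block, and 11 were lower and 1 higher with the deposited scaling. Il4ra, the chain shared by the interleukin-4 and interleukin-13 receptors, had 23 and 18.6 CPM in WT_LPS_JAKi and 12.3 and 11.4 CPM in KO_LPS (difference -0.75, adjusted p = 7.1e-05), and it was lower by 0.67 without LPS. Il15ra and Csf2rb were lower by 0.58 and 0.45, and Il10ra, the ligand-binding chain for interleukin-10, was higher by 0.48 (adjusted p = 0.0012, and 0.0946 without the block).

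Among 19 feedback genes and phosphatases of Jak signalling, 9 were higher and 2 lower in KO_LPS. Cish, an inhibitor that STAT5 induces, had 23.1 and 17.9 CPM under the inhibitor, 34.9 and 32.1 CPM in the knockout and 18.7 and 21.1 CPM in WT_LPS. It was not lower with the inhibitor (difference from WT_LPS 0.03, adjusted p = 0.92) and was higher in the knockout than in both (0.69 against WT_LPS_JAKi, adjusted p = 0.00021). Socs1, which blocks interferon receptors, had 2.74 and 2.54 CPM in WT_LPS, 0.985 and 0.672 CPM in WT_LPS_JAKi and 1.42 and 1.38 CPM in KO_LPS (difference 0.40, adjusted p = 0.02, 0.0818 without the block, and 0.0513 to 0.138 without KO_LPS replicate 1, KO_LPS replicate 2 or WT_LPS_JAKi replicate 2). Socs3 was not called, at 767 and 602 against 681 and 536 CPM. The phosphatase genes Ptpn6 and Ptpn1, whose products remove phosphate from Jak kinases, were lower by 0.40 and 0.34. Whether Jak kinases were fully blocked was not measured.

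Some of the largest reductions were those of chemokines. Of 16 tested, 9 were lower and 2 higher in KO_LPS than in WT_LPS_JAKi, with a median of -0.47. Ccl2, which draws monocytes, had 127 and 136 CPM in WT_LPS, 100 and 120 CPM in WT_LPS_JAKi and 12.4 and 19.3 CPM in KO_LPS, so the mean with the inhibitor was 6.96 times that of the knockout (difference -2.75, SE 0.12, adjusted p = 4.9e-10). Its neighbour Ccl7, another monocyte chemokine, had 4.81 and 4.32 CPM against 0.306 and 0.468 CPM (difference -2.01, adjusted p = 8.6e-09). With the inhibitor Ccl2 was at 84.1% and Ccl7 at 99.2% of the WT_LPS mean. Without LPS Ccl2 was already lower in the knockout, at 0.476 and 1.23 CPM against 4.36 and 7.77 CPM in WT_JAKi.

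Ccl5, a chemokine for T cells, had 218 and 240 CPM under the inhibitor and 74.6 and 91.5 CPM in the knockout (difference -1.46, SE 0.08, adjusted p = 7.9e-09). Cx3cl1, the membrane-bound fractalkine, had 0 reads in KO_UT and in WT_JAKi, and with LPS 8.04 and 5.56 CPM with the inhibitor against 2.03 and 1.08 CPM in the knockout (difference -1.62, adjusted p = 8.1e-07). Cxcl11 and Cxcl10, ligands of CXCR3, were lower by 1.36 and 0.39, and with the inhibitor they were also called below WT_LPS, by 0.76 and 0.63. Between both states Cxcl10 was not called without KO_LPS replicate 2 (adjusted p = 0.217) or WT_LPS_JAKi replicate 1 (0.212). Ccl17, Ccl9 and Ccl22 were lower by 0.67, 0.56 and 0.54, though Ccl22 was not called without WT_LPS_JAKi replicate 1 (adjusted p = 0.066), without the block (0.115), with a pseudocount of 0.25 (0.101) or by DESeq2 (0.549). The 2 members that were higher were the neutrophil chemokine Cxcl2 (2015 and 2081 against 3105 and 3149 CPM, difference 0.61, adjusted p = 1.6e-07) and Cxcl16 (difference 0.16, adjusted p = 0.017, 0.144 without the block, and 0.0766 to 0.195 without KO_LPS replicate 1, KO_LPS replicate 2 or WT_LPS_JAKi replicate 2).

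Csf1, the macrophage growth factor, which is on none of the lists, was among the largest differences. It had 34.1 and 35.7 CPM in WT_LPS, 26.3 and 20.2 CPM in WT_LPS_JAKi and 7.01 and 5.95 CPM in KO_LPS (difference -1.69, SE 0.11, adjusted p = 4e-08). Both states were below WT_LPS, the inhibitor by 0.58 (adjusted p = 0.0062) and the knockout by 2.27 (adjusted p = 2e-09). Prdm1, which encodes the repressor Blimp-1, had 30.9 and 28.1 CPM in WT_LPS, 31.5 and 26.6 CPM with the inhibitor and 7.87 and 7.65 CPM in the knockout. The difference between both states was -1.77 (adjusted p = 1.7e-08).

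NF-kB targets and feedback genes had a median difference of 0.00, and 5 of 39 were higher and 12 lower. Tnf, the founding cytokine of its family, had 4077 and 4285 CPM in WT_LPS_JAKi and 4416 and 4292 CPM in KO_LPS (difference 0.06, SE 0.07, adjusted p = 0.57). Il1b had 3386 and 2386 against 2967 and 2598 CPM, which overlapped (difference -0.03, SE 0.13, adjusted p = 0.87). The higher genes included Serpinb2, Ier3 and Nos2, and the lower ones Ccl5, Src and Tnfaip2. The count of lower genes was 3 without the block, and 5 without WT_LPS_JAKi replicate 1 or without KO_LPS replicate 2.

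Serpinb2, an inhibitor of plasminogen activators, had 5.23 and 5.14 CPM in WT_LPS, 5.58 and 4.88 CPM in WT_LPS_JAKi and 29.2 and 28.1 CPM in KO_LPS, a ratio of 5.48 between both states (difference 2.25, SE 0.09, adjusted p = 4.5e-10). It was at or near 0 in KO_UT and WT_JAKi. Nos2, the inducible nitric oxide synthase, had 9.03 and 11.7 CPM against 21.4 and 25.6 CPM (difference 1.12, adjusted p = 4.3e-05). Other enzymes of arginine and polyamine metabolism were higher with it in the knockout. Arg2, the mitochondrial arginase, was higher by 1.28 and Odc1, which starts polyamine synthesis, by 0.86, and of 8 tested genes of the list 4 were higher and 1 lower.

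Immediate early genes, which growth factor and MAP kinase signals switch on within minutes, were higher in 13 of 30 cases and lower in 2 (Nr4a3 and Dusp1, neither of them called without KO_LPS replicate 2 or WT_LPS_JAKi replicate 1). The largest difference was that of Dusp6, an ERK phosphatase and ERK target, with 3.17 and 3.33 CPM in WT_LPS_JAKi and 14.2 and 14.7 CPM in KO_LPS (difference 1.86, SE 0.15, adjusted p = 3.1e-07). It was lower with LPS than without in both states, from 38.2 and 33.1 CPM in WT_JAKi and from 43.7 and 31.7 CPM in KO_UT, and the knockout kept more of it. Dusp4 and Dusp5, further MAP kinase phosphatases, were higher by 1.27 and 0.65, and Ier3 by 1.21 (163 and 163 against 407 and 350 CPM). Jun, Klf4, Fosl1 and Klf6, which encode transcription factors, were higher by 1.00, 1.08, 0.78 and 0.72, though Fosl1 was not called without KO_LPS replicate 1 (adjusted p = 0.109) or WT_LPS_JAKi replicate 2 (adjusted p = 0.0636).

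Tlr4, which encodes the LPS receptor, was lower with LPS than without in the inhibited wild type and in the knockout. It had 16.8 and 13.0 CPM in WT_LPS_JAKi and 34.7 and 23.7 CPM in KO_LPS (difference 0.91, SE 0.06, adjusted p = 3.1e-08), after 127 and 89.1 CPM in WT_JAKi and 129 and 94.3 CPM in KO_UT. Of 28 genes of TLR4 signalling, 4 were higher and 7 lower. The lower ones included Tlr2 (difference -0.48) and Ly96, which encodes the MD-2 co-receptor (difference -0.41, adjusted p = 0.0036, and 0.162 without the block and 0.0718 without WT_LPS_JAKi replicate 1).

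The medians of the sterol synthesis list stood on opposite sides of wild type in both states. SREBP2 turns on the enzymes that make cholesterol when the membrane sterol level falls. Of 29 tested genes, 25 were lower in KO_LPS than in WT_LPS_JAKi, with a median of -0.67. By limma 0 were higher, also at an unadjusted p under 0.05 and by edgeR and DESeq2. Against WT_LPS, the knockout had 24 lower and 1 higher (median -0.43) and the inhibitor 17 higher (median 0.23). Over all genes, 16.7% were lower in the knockout and 1.68% higher with the inhibitor. These 2 comparisons share the WT_LPS libraries. The count of 17 was less stable than the median: 4 genes were called higher with the inhibitor without the block, 10 with no filter or without WT_LPS_JAKi replicate 1, 11 without WT_LPS replicate 2, and the median stayed between 0.214 and 0.267 in all settings run. Without LPS, 20 were lower and 1 higher in KO_UT than in WT_JAKi (median -0.29), and in the test of the difference of LPS responses 17 were lower (median -0.36).

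Hmgcs1, which makes the precursor of mevalonate, had the largest difference of the list. Its promoter is shown for the sterol response element, 150 bases before the start from RefSeq on GRCm38.p6, with a match to TCACNCCAC on either strand in capitals.
Hmgcs1, chr13:119690201-119690350, plus strand: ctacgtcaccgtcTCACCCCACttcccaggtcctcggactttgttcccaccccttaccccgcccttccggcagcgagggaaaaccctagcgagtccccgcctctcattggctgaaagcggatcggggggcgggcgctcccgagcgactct

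A match occurs in 1.22% of all promoter windows. Windows were at hand for 20 of the 29 tested sterol genes, too few for a share. Of these 20, only 1 held a match, that of Hmgcs1, so the promoter shown does not stand for the list.

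Hmgcs1 had 191 and 175 CPM in WT_LPS, 298 and 268 CPM in WT_LPS_JAKi and 106 and 101 CPM in KO_LPS, without overlap between any of the 3 groups. The inhibited cells were at 155% and the knockout at 56.6% of the WT_LPS mean, and the difference between them was -1.44 (SE 0.04, adjusted p = 1.8e-11). Further along the pathway, the enzyme genes Mvd, Idi1, Fdft1, Sqle, Lss, Cyp51 and Msmo1 were lower by 0.99, 0.88, 1.07, 0.79, 0.82, 0.98 and 1.04.

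Among the regulators and lipid genes, Insig1, which holds SREBP in the endoplasmic reticulum and is its target, was lower by 0.89, and Srebf2, which encodes SREBP2, by 0.23 (adjusted p = 0.0016). Fasn, the fatty acid synthase, was not called (difference -0.16, adjusted p = 0.054).

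**Figure D4:**
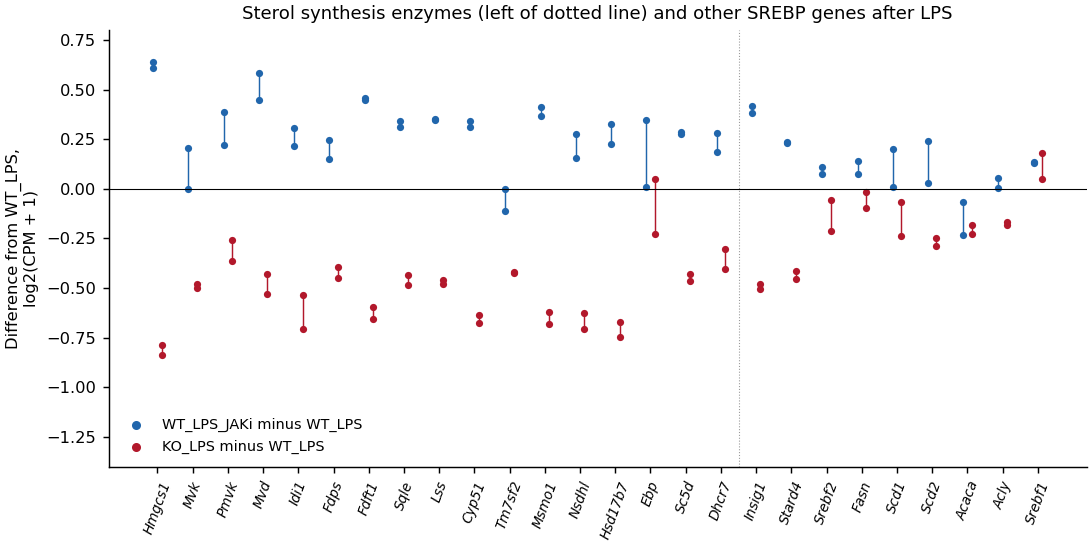
Difference from the WT_LPS library of the same replicate number, on the log2(CPM + 1) scale, for most tested genes of the sterol and SREBP list in WT_LPS_JAKi (blue) and KO_LPS (red), with both replicates joined by a line and the enzymes in pathway order left of the dotted line. From Hmgcs1 to Dhcr7 nearly all blue points lie above zero and nearly all red points below.

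Genes of protein folding in the endoplasmic reticulum were higher in the knockout by nearly the same amount with and without LPS. Of 19 tested, 15 were higher in KO_LPS than in WT_LPS_JAKi (median 0.39), and 17 were higher in KO_UT than in WT_JAKi (median 0.40). In the difference of LPS responses 0 passed by limma, edgeR or DESeq2, and 3 were lower at an unadjusted p under 0.05. By limma 5.41% of all genes were called in that test, so 0 of 19 is near that share and does not show equal responses. Hspa5, the chaperone BiP, had 2617 and 2680 CPM under the inhibitor and 3420 and 3622 CPM in the knockout (difference 0.41, SE 0.05, adjusted p = 1.6e-05), and without LPS 2056 and 2122 against 2856 and 2966 CPM. Hyou1, Pdia4 and Hsp90b1, which act on folding proteins beside it, were higher by 0.67, 0.61 and 0.48. Xbp1, the factor spliced by IRE1, was not called (160 and 158 CPM with the inhibitor, 173 and 161 CPM in the knockout, adjusted p = 0.22).

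The promoter of Hspa5 is shown for the element that this list shares, 150 bases before the start from RefSeq on GRCm38.p6, with capitals for a match to CCAAT, any 9 bases and CCACG, the endoplasmic reticulum stress element, on either strand.
Hspa5, chr2:34771940-34772089, plus strand: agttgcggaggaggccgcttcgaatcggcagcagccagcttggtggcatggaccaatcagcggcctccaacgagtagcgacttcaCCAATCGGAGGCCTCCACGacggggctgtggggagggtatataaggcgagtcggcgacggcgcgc

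Of the 17 tested genes of the list with a promoter window, 8 (47.1%) held this match, against 0.13% of all 27025 windows. The list was put together from genes known to respond to unfolded proteins, so the share describes the list and not the knockout.

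Genes of the ATF4 response, which amino acid shortage and other stresses turn on, were higher in 16 of 19 cases and lower in 1 (median 0.45). Trib3, a pseudokinase induced by ATF4, had 1.2 and 0.879 CPM in WT_LPS_JAKi and 7.18 and 4.38 CPM in KO_LPS (difference 1.70, SE 0.13, adjusted p = 2.5e-07). Chac1, which degrades glutathione, was higher by 1.61, Atf5 by 1.23 and Asns, the asparagine synthetase, by 0.87 (112 and 116 against 218 and 202 CPM). Slc7a11, the cystine importer, was the lower member, at 265 and 262 against 120 and 118 CPM (difference -1.14, SE 0.06, adjusted p = 8.2e-09). Without LPS 12 of the 19 were higher and 1 lower in KO_UT. A match to TGATGNAA, the short form of the C/EBP-ATF response element, was found in 5 of the 18 matched promoters (27.8%), against 4.06% of all windows. This list too was chosen for a known response, here that of ATF4, so the share describes the list and not the knockout.

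Antioxidant genes of the NRF2 list were mostly lower in the knockout, 10 of 17 lower and 3 higher in KO_LPS than in WT_LPS_JAKi. The split was similar without LPS, with 8 lower and 3 higher in KO_UT than in WT_JAKi. In the difference of LPS responses 1 was lower, where 2.21% of all genes were lower. Nfe2l2, which encodes NRF2, had 241 and 218 CPM in WT_LPS_JAKi and 169 and 162 CPM in KO_LPS (difference -0.47, adjusted p = 1.9e-06), and Hmox1, the heme oxygenase, was higher by 0.78. Glycolysis and hypoxia genes were split, 8 higher and 5 lower of 24, with Pfkp higher by 0.72 and the glucose transporter Slc2a1 by 0.47 (311 and 340 against 446 and 453 CPM). The split moved with the settings: the count of lower genes was 1 without KO_LPS replicate 1 and 2 without either WT_LPS_JAKi library, 5 were higher without WT_LPS_JAKi replicate 1, 3 were higher and 2 lower without the block, and 4 were higher and 11 lower with the deposited scaling.

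**Figure D5:**
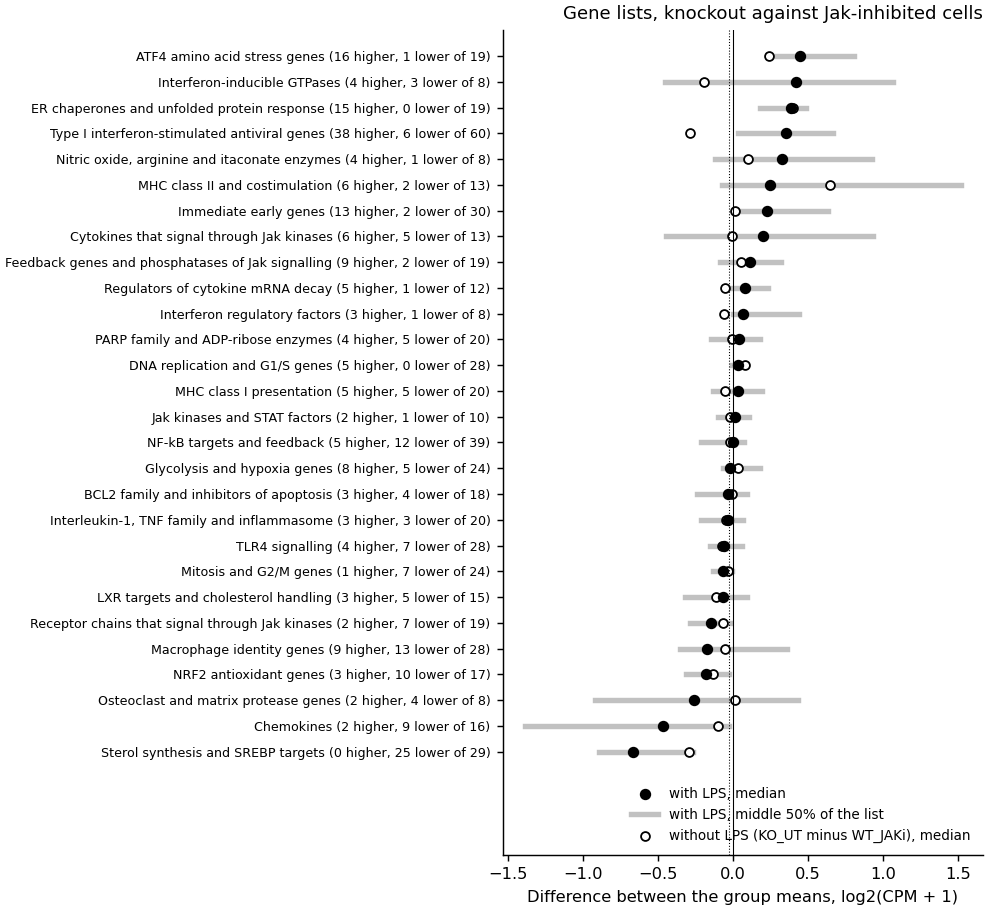
Median difference of each gene list between KO_LPS and WT_LPS_JAKi (black point), the middle 50% of its genes (grey bar) and its median between KO_UT and WT_JAKi (open point), on the log2(CPM + 1) scale, with the calls with LPS in the labels and the median of all genes dotted. The ER chaperone list has both points close together, at 0.39 and 0.40, the interferon-stimulated list has them on opposite sides of zero, and the sterol list is the lowest.

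The genes with the largest differences were mostly ones that set the knockout line apart in every condition. Tbx3, a T-box factor on chromosome 5 at 119670669 to 119684724 (GRCm38), had 0 reads in each of the 8 wild-type libraries and 21.2 and 18.6 CPM in KO_LPS, at least 499-fold more than WT_LPS_JAKi by a floor of 3 reads over the group. KO_UT had 60.4 and 50.1 CPM, and DESeq2 did not call the gene (adjusted p = 0.0724). Scarf1, a scavenger receptor, had 0 reads in WT_LPS_JAKi and 6.51 and 5.81 CPM in KO_LPS, at least 154-fold more. These bounds cover counting error only.

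Slpi, a secreted protease inhibitor, had 1.45 and 1.55 CPM in WT_LPS_JAKi and 36.2 and 31.9 CPM in KO_LPS (difference 3.81, SE 0.09, adjusted p = 3.1e-12), and 12.9 and 12 CPM in KO_UT. Mmp9, a matrix protease, had 6.51 and 8.68 CPM against 107 and 112 CPM (difference 3.69, SE 0.14, adjusted p = 1.6e-10). Mmp9 was higher with LPS than without in both states, from 0.0515 and 0.0980 CPM in WT_JAKi and from 2.68 and 5.15 CPM in KO_UT. Nid2, Hpgd, Dmwd, H2-Ea-ps, H2-Aa, Afp, Myo6, H2-Eb1, Tnc and H2-Ab1 complete the 14 largest upward differences among genes of at least 5 CPM, between 3.27 and 2.37, and each was also called higher without LPS. Nid2, H2-Ea-ps, H2-Aa, H2-Eb1 and H2-Ab1, like Tbx3 and Scarf1, were under 1 CPM in every wild-type library. They passed the filter only through knockout libraries, so their higher calls with and without LPS were partly set by the filter.

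At the other end were Ndrg4, Ccl2, Gpnmb, Tmeff1, Plod2, Msantd3, Slc6a8, Cd33, Tgm2, Mamld1, Prdm1, Csf1, Parp14 and Cx3cl1. Ndrg4 had 20 and 22.9 CPM in WT_LPS_JAKi and 1.64 and 2.22 CPM in KO_LPS (difference -2.94, SE 0.08, adjusted p = 1.4e-11), and 31.8 and 40.0 against 2.56 and 2.82 CPM without LPS. Gpnmb, a lysosomal glycoprotein of macrophages, had 383 and 280 CPM against 45.8 and 53.9 CPM (difference -2.70, adjusted p = 2.9e-08). Tmeff1, a membrane protein, and Msantd3 are neighbours on chromosome 4. Tmeff1 had 5.88 and 5.48 CPM against 0.167 and 0.117 CPM. Prdm1 and Cx3cl1 were the only 2 of these 14 not called without LPS.

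Antigen presentation and macrophage identity genes also differed. Of 13 genes of MHC class II and costimulation, 6 were higher and 2 lower (Cd83 and Cd274) in KO_LPS (median 0.24). Without LPS 10 were higher and 2 lower in KO_UT than in WT_JAKi (median 0.65). Both counts include H2-Aa, H2-Ab1 and H2-Eb1, which were under 1 CPM in every wild-type library. These genes passed the filter only through knockout libraries, so their higher calls were partly set by the filter. Cd274 was not called without KO_LPS replicate 1 or WT_LPS_JAKi replicate 2. Without the block neither Cd274 nor Cd83 was called, the latter at an adjusted p of 0.254 by limma. H2-Aa, a class II chain, had 0.274 and 0.0775 CPM in WT_LPS_JAKi and 10.3 and 3.96 CPM in KO_LPS (difference 2.68, adjusted p = 1.1e-07); H2-Ab1 and H2-Eb1 were higher by 2.37 and 2.59. In KO_LPS and KO_UT replicate 1 was above replicate 2 for all 3 of these genes. Cd86, a ligand of CD28, had 2.93 and 3.02 CPM against 13.0 and 8.26 CPM (difference 1.52, adjusted p = 3.1e-07), and Cd80 was higher by 0.65. Of 28 macrophage identity genes 9 were higher and 13 lower, with Adgre1 (difference -1.32, SE 0.04, adjusted p = 6.4e-11) and Gpnmb among the lower and Maf and Ccr2 among the higher ones. Of 20 genes of MHC class I presentation 5 were higher and 5 lower, and Tap1, the peptide transporter, was higher by 0.65 (8.78 and 11.2 against 15.5 and 16.8 CPM). Only 1 class I gene was lower without KO_LPS replicate 1 or WT_LPS_JAKi replicate 1, 3 without KO_LPS replicate 2 or by DESeq2, 2 were higher and 0 lower without the block, and 3 were higher and 8 lower with the deposited scaling.

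Osteoclast and matrix protease genes were split, as 2 of 8 were higher (Mmp9 and Dcstamp) and 4 lower, among them Acp5 (difference -1.38) and Atp6v0d2 (difference -1.18). Dcstamp was not called by limma without the block (adjusted p = 0.275). In the remaining lists the calls were few or went both ways. DNA replication and G1/S genes had 5 of 28 higher, mitosis genes 1 of 24 higher and 7 lower, BCL2 family genes 3 of 18 higher and 4 lower, and LXR targets 3 of 15 higher and 5 lower. The PARP family had 4 of 20 higher and 5 lower, the interleukin-1 and TNF family 3 of 20 higher and 3 lower, and regulators of cytokine mRNA decay 5 of 12 higher and 1 lower. Many of these small counts moved with the settings. With the deposited scaling 2 G1/S genes were higher and 6 lower, and 15 mitosis genes were lower. Over all genes that setting had 1009 higher and 4106 lower. Without KO_LPS replicate 1 the counts were 2 for higher G1/S genes, 3 for lower mitosis genes and 1 for lower PARP genes, and without the block no mRNA decay regulator was called.

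The LPS response of the knockout, without inhibitor, differed from that of wild-type cells under the inhibitor for 590 genes (5.41%), 349 in which the knockout response was the higher and 241 in which it was the lower. The largest upward differences were those of Mx2 (2.32), Serpinb2 (2.20), Dusp6 (1.79), Irgm2 (1.63), Ier3 (1.57) and Usp18 (1.57). Usp18, which removes ISG15 from proteins and blocks the interferon receptor, had 18.0 and 23.2 CPM in WT_LPS_JAKi and 31.3 and 42.8 CPM in KO_LPS, and before LPS 32.9 and 50.7 CPM in WT_JAKi and 19.9 and 28.4 CPM in KO_UT. Its level thus fell by 0.97 with LPS under the inhibitor (adjusted p = 1.4e-08) and rose by 0.60 in the knockout (adjusted p = 2.3e-06). Between both states with LPS, Usp18 was not called by limma without the block (adjusted p = 0.0713). Lower levels with LPS were common on this scale: of 10899 genes, 6509 were called lower under the inhibitor (median -0.27) and 6781 in the knockout (median -0.29).

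The largest downward differences were those of Hpgd (-2.69), Ccr2 (-1.63), Cx3cl1 (-1.62), Prdm1 (-1.59), Shisa3 (-1.56) and Cd40 (-1.44). Hpgd, which inactivates prostaglandins, was lowered by LPS from 201 and 119 CPM to 11.5 and 5.92 CPM in the knockout line, and replicate 1 was the higher library in all 4 groups given here. In the inhibited line it went from 3.09 and 1.05 CPM to 0.191 and 0.0517 CPM. Cd40, a costimulatory receptor, stood at 117 and 114 CPM with LPS and inhibitor and at 107 and 112 CPM in the knockout with LPS (difference -0.07, adjusted p = 0.54), compared with 2.83 and 3.19 CPM in WT_JAKi and 9.83 and 8.78 CPM in KO_UT. On the log2(CPM + 1) scale differences of genes near 0 are understated, and without the replicate block 29 genes were higher and 31 lower in this test.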

How the data were processed

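TruSeq RNA libraries of RAW 264.7 cells were compared (6 groups of 2 libraries). The authors deposited CPM per gene symbol, made with TopHat2 2.1.0, HTSeq and edgeR on mm10 (GRCm38), per the submitters' processing notes; for HTSeq and edgeR no version is named, nor are annotation and strand setting, so reads of overlapping genes cannot be told apart. All values above 0 were whole reads within 0.02 reads. CPM were rescaled to gene reads (58.95 to 64.06% of the counted alignments), leaving out 5 summary lines; 4 further per-sample columns matched no label and were not used. The table held 24421 symbols, 27 of them turned into dates, which are not named.

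Genes with at least 1 CPM in 2 libraries (10899) were tested on the log2(CPM + 1) scale with limma-trend (limma 3.58.1, R 4.3.3), fitting the 6 group means of all 12 libraries at once and the replicate number as a block (5 residual and 8.91 prior degrees of freedom) and Benjamini-Hochberg adjustment, in 5 comparisons. Same-numbered libraries deviated together in all 15 pairs of groups (r 0.468 to 0.737; 0.718 between KO_LPS and WT_LPS_JAKi), which is how the numbers were taken to pair. Replicates had an r of 0.9952 to 0.997. Alternatives were another pseudocount (0.25), filters (none, 5 CPM), scalings, no block, only the groups compared, edgeR 4.0.16 and DESeq2 1.42.0 on the recovered reads, and leaving out each library.

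Members and gene lists were chosen with earlier results of these data known. Named genes were the 14 largest called differences each way whose groups did not overlap and whose larger mean reached 5 CPM, 6 in each direction for the difference of LPS responses, up to 4 per list and a followed set; further list members were named after their values were seen. Positions are from GENCODE M21, promoters from RefSeq GRCm38.p6. A few list members are counted but not reported here by name.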

Additional observations from a re-analysis of the deposited data

Results flagged for a closer look

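The LPS response of the knockout (KO_LPS minus KO_UT) differed from the LPS response with the inhibitor (WT_LPS_JAKi minus WT_JAKi) by the limma test of the difference for 95 of 199 named genes tested. The 24 given here are those named for this difference or followed throughout. The response was higher in the knockout, on the log2(CPM + 1) scale, for Mx2 (2.32), Serpinb2 (2.20), Dusp6 (1.79), Irgm2 (1.63), Ier3 (1.57), Usp18 (1.57), Irf7 (1.34), Rsad2 (1.28), Parp14 (1.21), Mx1 (0.88), Nos2 (0.87), Dtx3l (0.82), Il6 (0.81), Socs3 (0.74), Ifit1 (0.73), Cish (0.69) and Parp9 (0.45). It was lower for Hpgd (-2.69), Ccr2 (-1.63), Cx3cl1 (-1.62), Prdm1 (-1.59), Shisa3 (-1.56), Cd40 (-1.44) and Ifnb1 (-0.97). For Ifit1, Parp9, Socs3 and Cd40 the levels with LPS were not called between both states, while those without LPS were.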

How the results depend on the processing

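No named gene called between KO_LPS and WT_LPS_JAKi changed its direction in a setting run. Of 186 named genes called between KO_LPS and WT_LPS_JAKi, 130 were called in every setting that gave a value and 56 were not; edgeR kept 186 and leaving out the replicate block lost 50. Without the replicate block higher and lower calls were 708 and 743 for KO_LPS against WT_LPS_JAKi, 513 and 532 for KO_UT against WT_JAKi, 29 and 31 for the difference of LPS responses, 675 and 835 for KO_LPS against WT_LPS, and 8 and 113 for WT_LPS_JAKi against WT_LPS. With the deposited scaling they were 1009 and 4106 for KO_LPS against WT_LPS_JAKi (19.7% of calls higher, against 44.7%) and 831 and 2860 without LPS (22.5% against 48.1%), with 1072 higher for KO_LPS (29.0% of calls against 47.2%) and 531 higher for WT_LPS_JAKi (70.1% against 41.0%) against WT_LPS. For WT_LPS_JAKi against WT_LPS, higher calls were 63 with no filter, 114 with median-of-ratios scaling (26.0% of calls), 88 with DESeq2, and 443 beside 440 lower with only the groups compared. The difference of LPS responses had 215 higher and 157 lower calls with no filter and 148 lower with DESeq2. The cause of these shifts was not tested.

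Leaving out a library gave 1039 (without KO_LPS replicate 1) to 1562 higher and 1278 (the same library) to 1543 lower calls between KO_LPS and WT_LPS_JAKi, 763 (without KO_UT replicate 2) to 949 and 877 to 1003 without LPS, 200 (without WT_LPS_JAKi replicate 1) to 462 and 115 (without KO_UT replicate 2) to 264 for the difference of LPS responses, 982 (without KO_LPS replicate 1) to 1244 and 1282 to 1400 for KO_LPS against WT_LPS, and 31 (without WT_LPS_JAKi replicate 1) to 238 and 162 to 409 (without WT_LPS_JAKi replicate 2) for WT_LPS_JAKi against WT_LPS. Tbx3 was not called by DESeq2 (adjusted p = 0.0724). Genes under 1 CPM in all libraries but 1 were too shallow to test. With 2 libraries a group, an arm left with 1 library is assumed to vary like the others.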
